A study of Homo sapiens with 6 samples.

Results

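The DNA replication and S phase genes are a set of 51 listed genes, and each was found by an exact match of its gene name in the deposited table of every library. All 51 were listed in all 6 libraries, among 32575 genes listed in at least 1 library, and all 51 were among the 28388 genes tested. SH-SY5Y is a human neuroblastoma cell line of sympathoadrenal origin. The labels describe lentiviral transduction with a short hairpin RNA (shRNA) and selection in medium with puromycin, which every group shared, followed by 2 to 3 weeks of culture. There were 2 libraries each of cells with a control hairpin (labelled WT), with a hairpin against CSA, and with a hairpin against CSB. CSA is encoded by ERCC8 and CSB by ERCC6, both factors of transcription-coupled DNA repair. The labels call the depleted cells mutants, but a hairpin lowers an mRNA and does not delete a gene, so they are called knockdowns here. All cells carried an shRNA and there was no untransduced group; the sources used here give neither the number of hairpins per gene nor the cultures behind each group's 2 libraries. The p-values therefore measure only the spread between these libraries, which may be technical.

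DNA replication starts when the origin recognition complex, CDC6 and CDT1 load the MCM2-7 helicase onto DNA in G1, and it goes on when CDC45 and the GINS complex turn that helicase on in S phase. Primase and polymerase alpha then start new strands, the clamp PCNA and its loader RFC hold polymerases delta and epsilon on the template, and FEN1 and LIG1 join the fragments of the lagging strand. Most of these genes are transcribed at the G1/S boundary under E2F transcription factors, which are released when cyclin-dependent kinases phosphorylate the retinoblastoma protein, so their mRNA is widely read as a measure of how much of a culture is entering S phase. In RNA from a whole culture, fewer cells in S phase and less of a transcript per cell cannot be told apart.

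The genes' promoters are shown first, because shared E2F-type words are the sequence feature most often tied to this group. Of the 51 members, 43 had at least 1 window in RefSeq's promoter table for GRCh38.p14, which runs from 250 bases before to 50 bases after a gene's start. MCM4, MCM5, GINS4, RPA2, RPA3, POLD3, CCNE2 and WDR76 had none. The core word was TTCCCGC, read on both strands. Its 3 variants were searched likewise and were spelled TTCGCGC in the first case, TTGCCGC in the next and TTGGCGC in the last. Such words were present in 34 of the 43 members (79.1%), in 15.3% of all 27305 genes of the table, and in 26.4% of the protein-coding genes whose scaled count averaged at least 200. They were also in 14 of 29 other replication factors with a window (48.3%). Of the 58 matches in member windows, 47 began before the start and 41 began within 60 bases before it or after it. The stretches below lie before the gene start and are written 5′ to 3′ on the gene's strand, with the words in capitals. Except for CDT1, each is the longest run there outside annotated exons, so some bases before the start are not shown. MCM6 had the largest fall of all members after CSB depletion, and its stretch (chr2:135876444-135876693, minus strand) holds 4 matches as overlapping words on opposite strands. PCNA (chr20:5126627-5126785, minus strand) and E2F2 (chr1:23531234-23531483, minus strand) hold 1 match each. CCNE1 (chr19:29811741-29811897, plus strand), the only member that rose after CSA depletion, holds none. Its stretch ends 93 bases before the start, and the rest of the CCNE1 window, which is not shown, holds no match either. For CDT1, which rose after CSB depletion, a site of 30 bases with 2 matches is shown (chr16:88803743-88803772, plus strand). That site lies in an annotated exon and ends 16 bases before the start.
MCM6: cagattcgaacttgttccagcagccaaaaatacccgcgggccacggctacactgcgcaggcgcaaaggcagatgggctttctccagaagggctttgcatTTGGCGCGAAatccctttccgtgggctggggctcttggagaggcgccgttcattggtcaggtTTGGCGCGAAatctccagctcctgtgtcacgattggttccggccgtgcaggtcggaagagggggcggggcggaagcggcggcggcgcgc
PCNA: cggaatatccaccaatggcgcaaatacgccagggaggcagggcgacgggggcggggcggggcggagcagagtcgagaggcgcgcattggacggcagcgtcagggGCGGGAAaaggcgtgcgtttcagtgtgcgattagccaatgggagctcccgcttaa
E2F2: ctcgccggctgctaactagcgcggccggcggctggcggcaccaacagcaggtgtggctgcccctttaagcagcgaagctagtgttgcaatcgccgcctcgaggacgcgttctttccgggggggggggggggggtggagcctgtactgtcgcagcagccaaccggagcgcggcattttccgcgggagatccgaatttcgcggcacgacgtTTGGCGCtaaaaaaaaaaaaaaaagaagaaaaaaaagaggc
CCNE1: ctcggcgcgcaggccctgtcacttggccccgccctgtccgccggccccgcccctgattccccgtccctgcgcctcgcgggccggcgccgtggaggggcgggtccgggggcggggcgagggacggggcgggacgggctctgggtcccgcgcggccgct
CDT1: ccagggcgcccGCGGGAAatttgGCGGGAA
The word TTTGAA or its variant form TTCGAA, as in the cell cycle homology region (CHR) of late cell cycle genes, was in 3 of the 43 members (6.98%). In all genes of the table its share was 19.5%, and in the protein-coding genes with a mean of at least 200 it was 14.8%. The CHR word was in 12 of 16 genes of a G2/M and mitosis list, whereas the E2F-type words were in 3 of those 16 (18.8%). The CCAAT word was in 25 of the 43 members (58.1%), in 39.7% of all genes and in 43.8% of the protein-coding genes with a mean of at least 200. It was not particular to the members, with 17 of 29 other replication factors (58.6%) and 14 of the 16 G2/M and mitosis genes (87.5%) holding it. Of its 62 matches in member windows, 7 overlapped an E2F-type word. A match of letters is a description of the window and not a measured binding site.

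**Figure D1:**
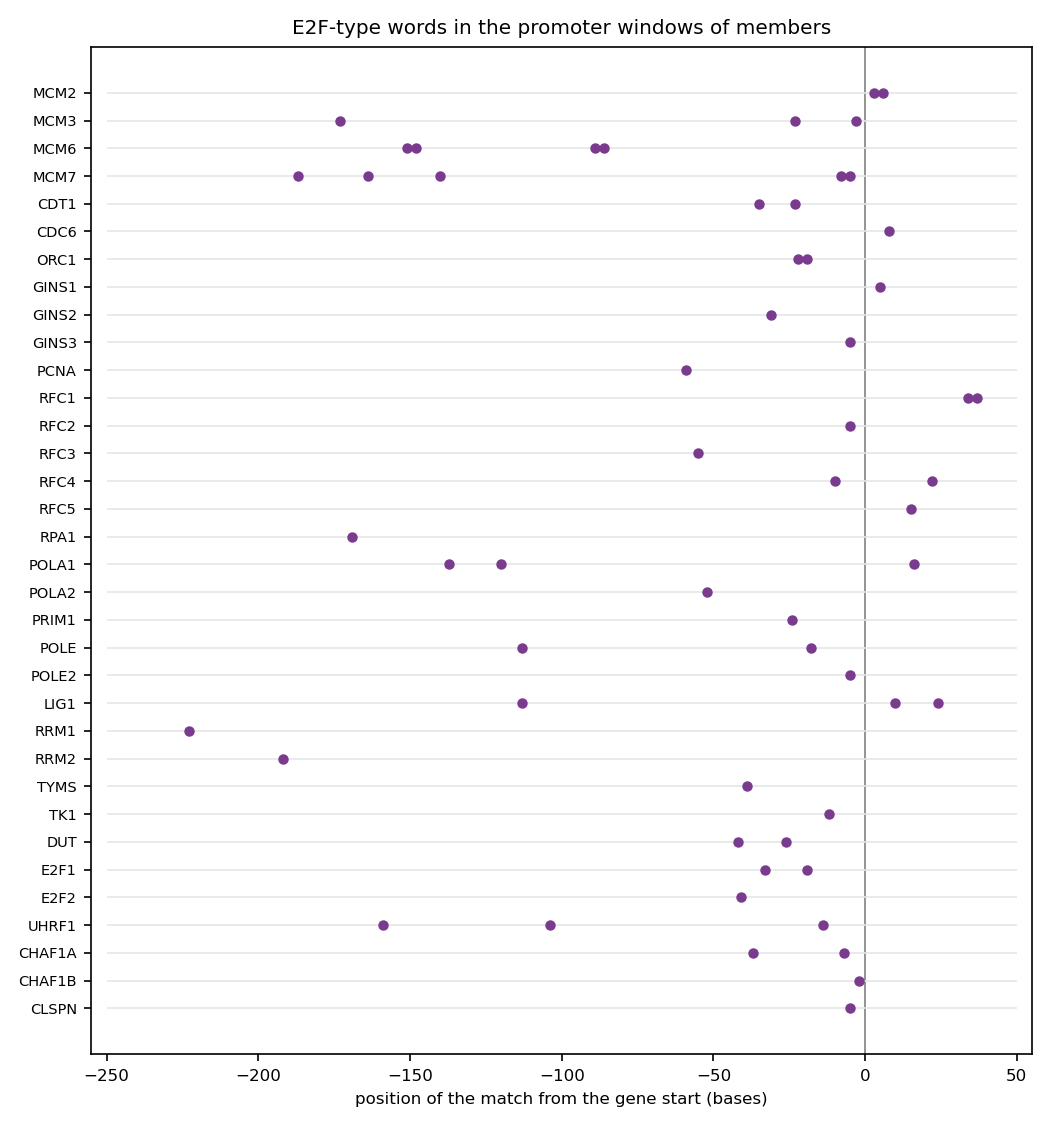
Positions of the 58 E2F-type words in the promoter windows of 34 members, in bases from the gene start (0), with all windows of a gene drawn on its line. Of the 58 points, 47 lie to the left of the start.

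Each value in the deposited tables is a gene's read count divided by 1 size factor per library, called the scaled count here. The recovered reads numbered between 19368272 and 26758162 per library, and the member with the fewest reads in any library still had 110. The hairpins' targets were lower in the cells labelled with them. ERCC8 stood at 219 and 217 in control, 61.8 and 57.2 after CSA depletion and 186 and 215 after CSB depletion. ERCC6 stood at 615 and 593, 618 and 611, and 258 and 302 in the same order. The label of the cell line was checked on 10 sympathoadrenal markers. They summed to 89675 to 93036 in control, 106470 to 112332 after CSA depletion and 83839 to 83873 after CSB depletion. Tyrosine hydroxylase (TH) was low at 2.86 to 20.3. The sums hide opposite changes. By the test used below, 4 of the 10 were higher and 4 lower after CSA depletion (log2 fold changes from -1.84 to 1.09). After CSB depletion 3 were higher and 3 lower (-2.04 to 0.37). Immune markers summed to at most 24.1 (CD3E and CD68 were not listed), epithelial ones to at most 55.3 and endothelial ones to at most 0.995. The 5 fibroblast and stroma markers moved with the groups: they summed to 10326 to 10673 in control, 6051 to 6501 in the CSA knockdown (3 of 5 lower) and 12937 to 13693 in the CSB knockdown (3 of 5 higher, with DCN at a log2 fold change of 2.23). The part of that change in the results below was not tested.

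After depletion of CSA, the replication genes were lower across nearly every step of replication. Of the 51 members, 37 fell and 1 rose, CCNE1, at an adjusted p below 0.05 in the test with limma, and 13 were not called. Over all genes tested, 10.4% were called lower and 8.37% higher. The members' median log2 fold change was -0.28, against 0.0048 over all genes tested, and 50 of the 51 lay below 0. The size was modest: the group mean stood at a median of 82.3% of the control mean, from 65.2% (POLE2) to 142% (CCNE1). Both CSA libraries lay below both control libraries for 45 members (27.1% of all genes tested did so), and only CCNE1 lay above them in both. The share of all genes lying above both control libraries was not counted. The members are better expressed than most genes, and among the 10652 genes with a mean of at least 200, 21.5% were called lower. With 1 library left out, the count of members called lower was 5 without the first control library and 6 without the second. It was 25 and 20 without the first and the second CSA library, and 20 and 18 without the first and the second CSB library, while the median stayed between -0.31 and -0.28. Among the members named for this comparison, MCM4 kept its call with each library left out in turn. MCM2 and CDC6 lost theirs without the first control library (adjusted p = 0.0558 and 0.0536), and CCNE1 lost its own without the first or the second control library (adjusted p = 0.0546 and 0.0535). POLE2, GINS4 and TK1 kept theirs in 2 of the 6 fits with a library left out.

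After depletion of CSB and with the deposited scaling, as many members fell as after CSA depletion, and more members lay above 0. Here 37 members fell, 2 rose (CDT1 and RRM2), and 12 were not called, where 8.86% of all genes were called lower and 14.8% higher (19.6% and 29.4% among the genes with a mean of at least 200). The median log2 fold change of the members was -0.27 and that of all genes 0.10, and 44 members lay below 0. The group mean stood at 58.1% (MCM6) to 146% (CDT1) of control, with a median of 82.8%. Both CSB libraries lay below both control libraries for 42 members (22.2% of all genes tested did so) and above them for 5, namely MCM7, CDT1, LIG1, RRM2 and CCNE2. How many of all genes lay above both control libraries was not counted here either, so the 5 are not read as a result about the members. Over all genes, 4191 were called higher and 2515 lower here, 2783 and 3053 by the same test with TMM scaling, 2212 and 2880 in DESeq2, and 4252 and 3272 in edgeR with upper quartile scaling. In DESeq2 the members' counts were 1 higher and 40 lower. The members' median depended on the scaling. It was -0.35 with limma and TMM and -0.36 in DESeq2, against -0.26 and -0.28 in the CSA comparison. With the trend on gene length removed it was -0.37, against -0.26. The count of members called lower was 10 without either control library, 10 without either CSB library, and 34 and 31 without the first and the second CSA library. CDT1, MCM6, CDC6 and GINS2 kept their calls with each library left out, and RPA3 lost its call without the second CSB library (adjusted p = 0.0577). POLE2 kept its call in 1 of the 6 fits. Both knockdowns were compared with the same 2 control libraries, so their fold changes are not independent of each other.

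**Figure D2:**
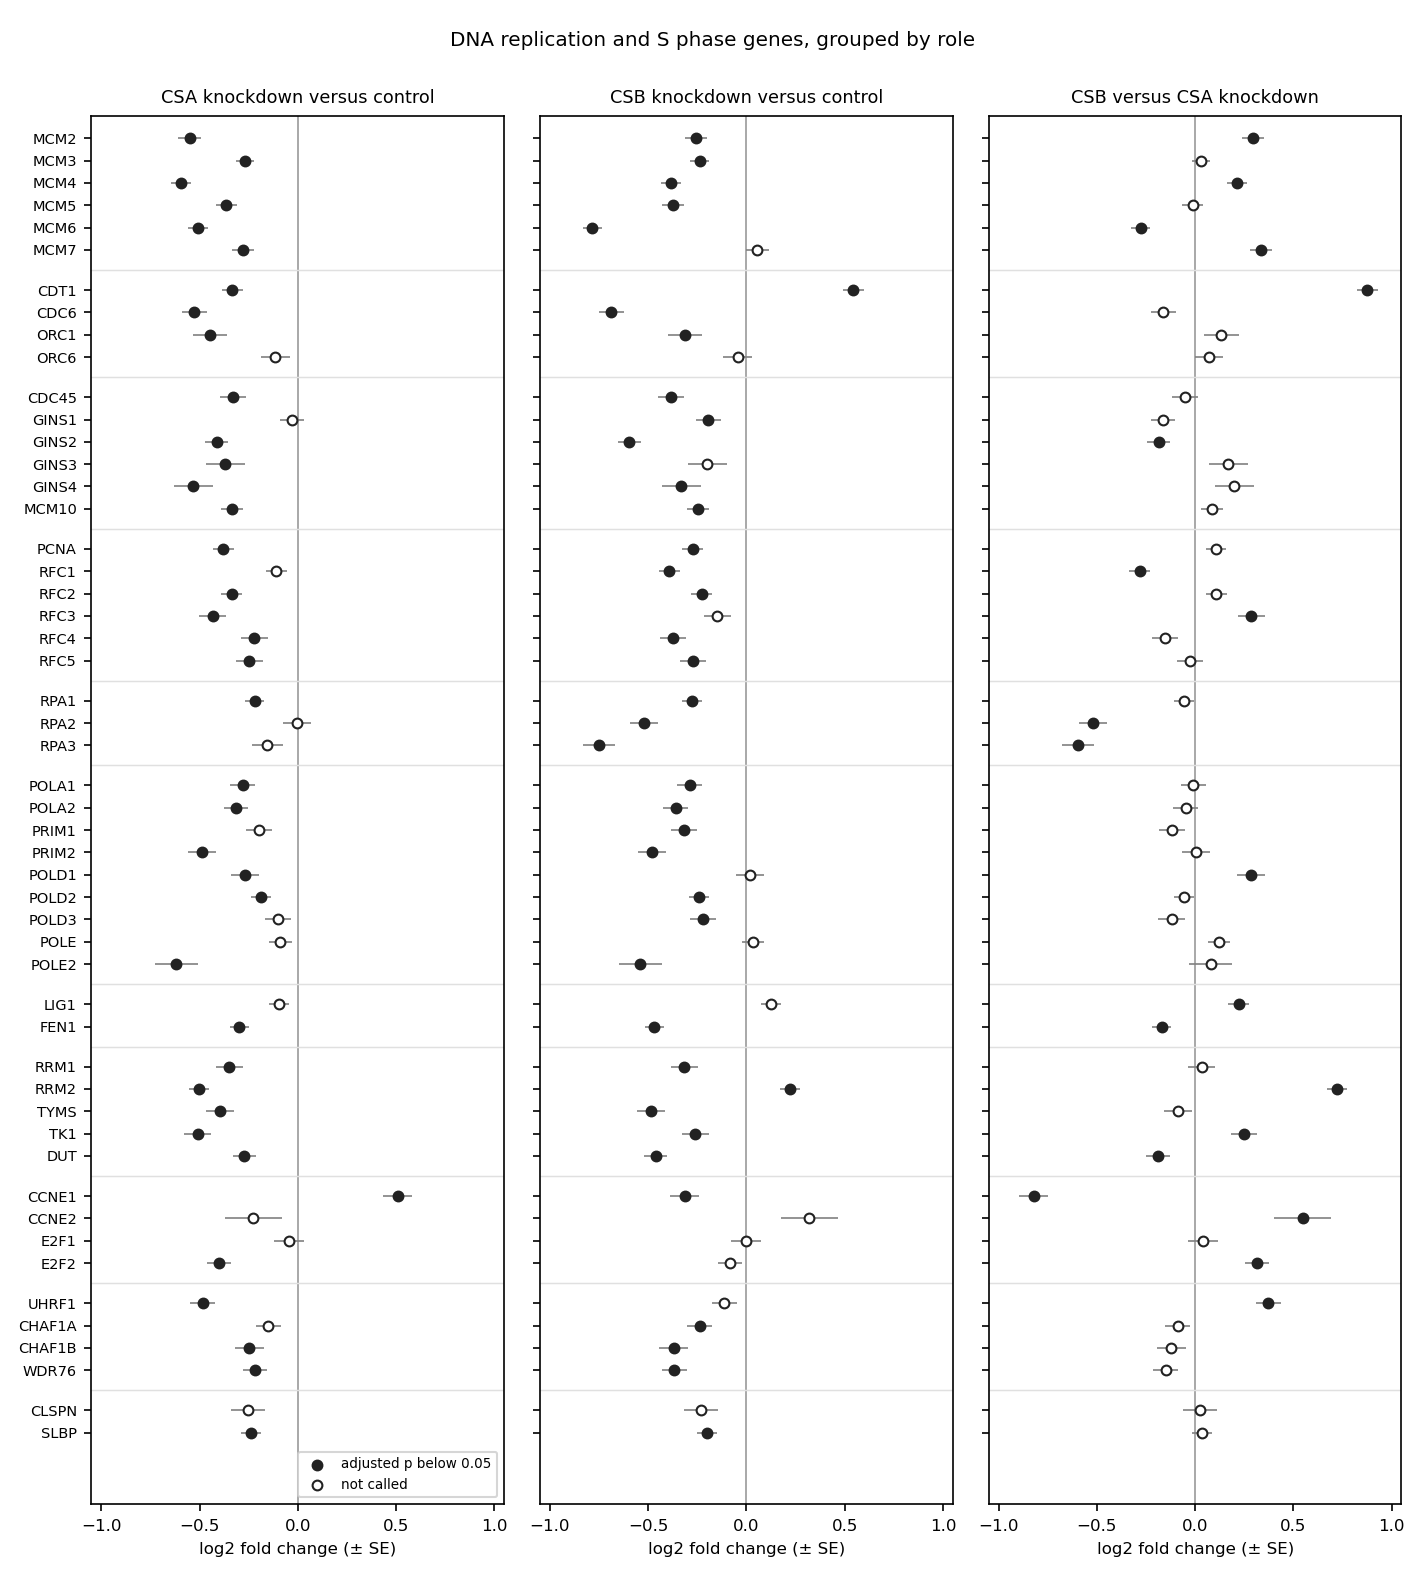
Log2 fold changes (points) with standard errors (lines) of the 51 members in the 3 comparisons, grouped by role from the MCM2-7 helicase at the top to the fork checkpoint and histone mRNA factors at the bottom, with filled points for an adjusted p below 0.05. In the left panel CCNE1 alone is a filled point right of 0, and in the middle panel CDT1 and RRM2 are.

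The MCM2-7 helicase, the ring that unwinds the template, was lower as a whole after CSA depletion, where all 6 subunits fell, and 5 of 6 fell after CSB depletion. The 6 summed to 38412 to 38702 in control, 28939 to 30668 after CSA depletion and 33852 to 34315 after CSB depletion. MCM2 had scaled counts of 4916 and 4832 in control, 3158 and 3505 after CSA depletion and 3994 and 4169 after CSB depletion. The 3 groups of MCM2 did not overlap, with the CSA knockdown lowest; its log2 fold change (± SE) was -0.55 ± 0.06 after CSA depletion (adjusted p = 2.7e-05) and -0.26 ± 0.06 after CSB depletion (adjusted p = 0.00578). The call of MCM2 after CSB depletion was not kept in every fit with a library left out, where the value ranged from -0.287 to -0.225. MCM6 stood at 3397 and 3398, at 2447 and 2336, and at 1977 and 1968 in the same order of groups. Here the CSB knockdown was the lowest, with -0.51 ± 0.05 after CSA depletion (adjusted p = 1.8e-05) and -0.78 ± 0.05 after CSB depletion (adjusted p = 5.4e-07). MCM4 had 4872 and 4937 in control, 3359 and 3139 after CSA depletion and 3743 and 3776 after CSB depletion. Its falls were -0.59 ± 0.05 (adjusted p = 5.6e-06) and -0.38 ± 0.05 (adjusted p = 0.00015). MCM7, which per kilobase of gene model had the highest level of all members (3565 in control), had 15738 and 15531 in control, 12179 and 13635 after CSA depletion and 16295 and 16215 after CSB depletion. MCM7 fell after CSA depletion by -0.28 ± 0.06 (adjusted p = 0.00438), while its 2 CSB libraries lay just above the controls (0.06 ± 0.06, adjusted p = 0.549). MCM3 and MCM5 fell in both knockdowns, MCM3 by -0.27 and -0.24 and MCM5 by -0.36 and -0.38. 

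Among the factors that load the helicase, CDC6 and ORC1 fell in both knockdowns and CDT1 went in opposite directions. CDT1, the loading factor that cells destroy in S phase and that geminin inhibits, stood at 1803 and 1736 in control, 1397 and 1413 after CSA depletion and 2507 and 2659 after CSB depletion. Its 3 groups did not overlap. CDT1 fell after CSA depletion (-0.33 ± 0.05, adjusted p = 0.00086) and rose after CSB depletion (0.54 ± 0.05, adjusted p = 1.7e-05). With 1 library left out, the fall ranged from -0.360 to -0.305 and the rise from 0.502 to 0.587. The rise kept its call in each of those fits, and the fall did not. The ATPase CDC6, which works with it, had 1339 and 1283 in control, 897 and 921 after CSA depletion and 849 and 779 after CSB depletion. CDC6 was thus lower in all 4 knockdown libraries, by -0.53 ± 0.06 (adjusted p = 8.6e-05) and -0.69 ± 0.06 (adjusted p = 9.1e-06). ORC1, the largest subunit of the origin recognition complex, had 550 and 565, 447 and 374, and 451 and 446 in the same order. Both knockdowns of ORC1 lay below control, by -0.45 ± 0.09 (adjusted p = 0.00304) and -0.31 ± 0.09 (adjusted p = 0.0202), and each call was kept in 2 of the 6 fits with a library left out. ORC6 overlapped control in both knockdowns (-0.11 and -0.04) and was not called.

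The helicase activators CDC45, MCM10 and 3 of the 4 GINS subunits fell after CSA depletion, and CDC45, MCM10, GINS1, GINS2 and GINS4 fell after CSB depletion. CDC45, which joins the MCM ring and GINS in the active helicase, had 1158 and 1184 in control, 876 and 989 after CSA depletion and 897 and 898 after CSB depletion. Neither knockdown overlapped control (-0.33 ± 0.07, adjusted p = 0.00386, and -0.38 ± 0.07, adjusted p = 0.00116), and each of these calls was kept in 2 of the 6 fits with a library left out. GINS2 stood at 1049 and 1082, 803 and 799, and 704 and 706, with the CSB knockdown lowest and no overlap between groups. Its log2 fold changes were -0.41 ± 0.06 (adjusted p = 0.00033) and -0.60 ± 0.06 (adjusted p = 1.6e-05). GINS4 had fewer reads and more spread, with 391 and 358, 263 and 254, and 272 and 324. GINS4 fell by -0.53 ± 0.10 (adjusted p = 0.0024) and -0.33 ± 0.10 (adjusted p = 0.0303), and its call in the CSA comparison was lost without any 1 of the control or CSA libraries. MCM10, which helps open the helicase, fell by -0.33 and -0.25. GINS1 overlapped control after CSA depletion (-0.03), and GINS3 was not called after CSB depletion (-0.20). The direct test between the knockdowns was passed by neither GINS1 (adjusted p = 0.0714) nor GINS3 (adjusted p = 0.247).

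The sliding clamp and its loader were lower in both knockdowns, with 5 of 6 genes falling in each. PCNA, the ring that tethers polymerases to DNA, had 4700 and 4561 in control, 3540 and 3580 after CSA depletion and 3978 and 3685 after CSB depletion. All 4 knockdown libraries of PCNA lay below both controls, by -0.38 ± 0.05 (adjusted p = 0.00025) and -0.27 ± 0.05 (adjusted p = 0.0021), with each call kept in 3 of the 6 fits with a library left out. RFC1, the large subunit of the clamp loader, had 1845 and 1811, 1734 and 1654, and 1365 and 1421. It fell after CSB depletion (-0.39 ± 0.05, adjusted p = 0.00021) and was not called after CSA depletion (-0.11 ± 0.05, adjusted p = 0.201). For RFC3, a small subunit of the loader, it was the CSA comparison that passed (-0.43 ± 0.07, adjusted p = 0.00072) and the CSB comparison that did not (-0.15 ± 0.07, adjusted p = 0.154). RFC2, RFC4 and RFC5 fell in both, by -0.22 to -0.34 after CSA depletion and -0.23 to -0.37 after CSB depletion.

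RPA, the trimer that coats single-stranded DNA, fell in all 3 subunits after CSB depletion and in RPA1 after CSA depletion. RPA2, its middle subunit, had 1564 and 1487 in control, 1643 and 1411 after CSA depletion and 1076 and 1050 after CSB depletion. The CSA libraries lay on either side of the controls (-0.0020 ± 0.07, adjusted p = 1.0), and the CSB libraries lay below all others (-0.52 ± 0.07, adjusted p = 0.00019). That call of RPA2 was lost without either control library or either CSB library (adjusted p from 0.0574 to 0.112). RPA3, the small subunit, stood at 1357 and 1537, 1322 and 1272, and 926 and 795. It too was lowest after CSB depletion (-0.75 ± 0.08, adjusted p = 3e-05) and was not called after CSA depletion (-0.15 ± 0.08, adjusted p = 0.227). RPA1, the large subunit, fell in both, by -0.22 and -0.28.

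Of the 9 polymerase and primase genes, 6 fell after CSA depletion and 7 after CSB depletion. POLA1, the catalytic subunit of polymerase alpha, had 1027 and 943 in control, 813 and 809 after CSA depletion and 816 and 796 after CSB depletion. The 4 knockdown libraries of POLA1 lay close together below control, with -0.28 ± 0.06 (adjusted p = 0.00797) and -0.29 ± 0.06 (adjusted p = 0.00528). Its call in the CSA comparison was lost whichever library was left out (adjusted p from 0.054 to 0.115), and that in the CSB comparison was kept in 2 of the 6 fits (adjusted p from 0.0318 to 0.125). POLE2, an accessory subunit of polymerase epsilon, had 330 and 325, 229 and 198, and 246 and 206. It had the largest fall of all members after CSA depletion (-0.62 ± 0.11, adjusted p = 0.00162) and fell by -0.54 ± 0.11 after CSB depletion (adjusted p = 0.00328). The catalytic subunit of the same polymerase, POLE, was not called in either (-0.09 and 0.03). PRIM2, the primase's large subunit, fell by -0.49 and -0.48, and POLA2 by -0.31 and -0.36. For polymerase delta, the catalytic subunit POLD1 fell only after CSA depletion (-0.27, against 0.02 after CSB depletion), POLD3 only after CSB depletion (-0.22, against -0.10), and POLD2 in both; the direct test between the knockdowns was passed by POLD1 (adjusted p = 0.00871) and not by POLD3 (adjusted p = 0.218). PRIM1 had -0.20 (adjusted p = 0.0597) and -0.32 (adjusted p = 0.004), and its difference between the knockdowns did not pass (adjusted p = 0.22).

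FEN1, the nuclease that trims the flaps of lagging-strand fragments, fell in both knockdowns, by -0.30 and -0.47. LIG1, the ligase that seals them, had 1678 and 1706 in control, 1563 and 1605 after CSA depletion and 1820 and 1873 after CSB depletion. The CSA libraries of LIG1 lay below control and the CSB libraries above, but neither difference from control passed (-0.10 ± 0.05, adjusted p = 0.252, and 0.13 ± 0.05, adjusted p = 0.107).

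All 5 nucleotide supply genes fell after CSA depletion, and 4 fell and 1 rose after CSB depletion. RRM1 and RRM2 are the large and the small subunit of ribonucleotide reductase, which makes deoxyribonucleotides. RRM1 had 2733 and 2574 in control, 2150 and 2018 after CSA depletion and 1995 and 2277 after CSB depletion. It fell in both, by -0.35 ± 0.07 (adjusted p = 0.00294) and -0.32 ± 0.07 (adjusted p = 0.00449). Both calls of RRM1 were lost whichever library was left out, with adjusted p from 0.051 to 0.191 in the CSA and from 0.0564 to 0.19 in the CSB comparison. RRM2 stood at 3502 and 3539, 2574 and 2405, and 4118 and 4101, lowest after CSA depletion and highest after CSB depletion, with no overlap. The fall of RRM2 was -0.50 ± 0.05 (adjusted p = 2.3e-05) and its rise 0.22 ± 0.05 (adjusted p = 0.00662). That rise was not called with TMM scaling in limma (0.15, adjusted p = 0.057), in DESeq2 (0.14, adjusted p = 0.0765), or without any 1 of the control or CSB libraries (adjusted p 0.108 to 0.124). TK1, thymidine kinase, had 1935 and 1885, 1250 and 1441, and 1557 and 1634. It was lower in both knockdowns and lowest after CSA depletion (-0.51 ± 0.07, adjusted p = 0.00021, and -0.26 ± 0.07, adjusted p = 0.0149). DUT, which removes dUTP, had 3075 and 3149, 2621 and 2534, and 2389 and 2138. Its order was the reverse of that of TK1, with the CSB knockdown lowest (-0.27 ± 0.06, adjusted p = 0.0062, and -0.46 ± 0.06, adjusted p = 0.00012). TYMS, thymidylate synthase, fell by -0.40 and -0.48.

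Of the 4 regulators of S phase entry, 1 rose, 1 fell and 2 were not called after CSA depletion. After CSB depletion 1 fell and 3 were not called. Among the genes with a mean of at least 200, 17.5% were called higher and 21.5% lower after CSA depletion. After CSB depletion the shares were 29.4% and 19.6%, so these counts of 4 genes are not read as a result about the role. CCNE1, cyclin E1, the partner of CDK2 at the G1/S boundary, had 432 and 424 in control, 593 and 626 after CSA depletion and 356 and 333 after CSB depletion. It rose in the first knockdown (0.51 ± 0.07, adjusted p = 0.0004) and fell in the second (-0.31 ± 0.07, adjusted p = 0.00833), with no overlap between any 2 groups. The fall of CCNE1 was lost without any 1 of the control or CSB libraries (adjusted p from 0.0568 to 0.107). CCNE2, cyclin E2, was the lowest member per kilobase and was noisy, with 129 and 169, 119 and 134, and 197 and 173. Neither knockdown of CCNE2 passed against control (-0.23 ± 0.14, adjusted p = 0.337, and 0.32 ± 0.14, adjusted p = 0.142). E2F1, the activator that drives many of the members, had 2240 and 1974, 1908 and 2182, and 2173 and 2026. The 3 groups of E2F1 overlapped (-0.04 ± 0.08, adjusted p = 0.761, and -0.0027 ± 0.08, adjusted p = 0.996). E2F2, a second activator, had 1042 and 1021, 763 and 798, and 941 and 1004. It fell after CSA depletion (-0.40 ± 0.06, adjusted p = 0.00057), and the CSB libraries lay just under control without passing (-0.09 ± 0.06, adjusted p = 0.382).

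UHRF1, which recruits the maintenance DNA methyltransferase to newly copied DNA, had 3824 and 3859 in control, 2556 and 2955 after CSA depletion and 3587 and 3523 after CSB depletion. It fell after CSA depletion (-0.48 ± 0.06, adjusted p = 0.00019, a call kept in 2 of the 6 fits with a library left out). After CSB depletion UHRF1 was not called by the main test (-0.11 ± 0.06, adjusted p = 0.251). It was called lower there in 5 of the 11 other settings, among them edgeR with TMM scaling (-0.18, adjusted p = 0.0138). CHAF1B, a subunit of the chromatin assembly factor that places histones behind the fork, fell in both (-0.25 and -0.37), and so did WDR76 (-0.22 and -0.37). CHAF1A, its large subunit, passed only in the CSB comparison (-0.24, against -0.15), and its difference between the knockdowns did not pass (adjusted p = 0.358). CLSPN, claspin, the mediator of the fork checkpoint, had 962 and 1005, 787 and 864, and 762 and 922. All knockdown libraries of CLSPN lay below both controls, and neither comparison passed (-0.25 ± 0.09, adjusted p = 0.0629, and -0.23 ± 0.09, adjusted p = 0.0778). Among the 11 other settings CLSPN was called lower in 5 for CSA (adjusted p from 0.00858 to 0.142) and in 7 for CSB (adjusted p from 0.00168 to 0.116). SLBP, which binds the stem-loop of replication-dependent histone mRNA, fell by -0.24 and -0.20.

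**Figure D3:**
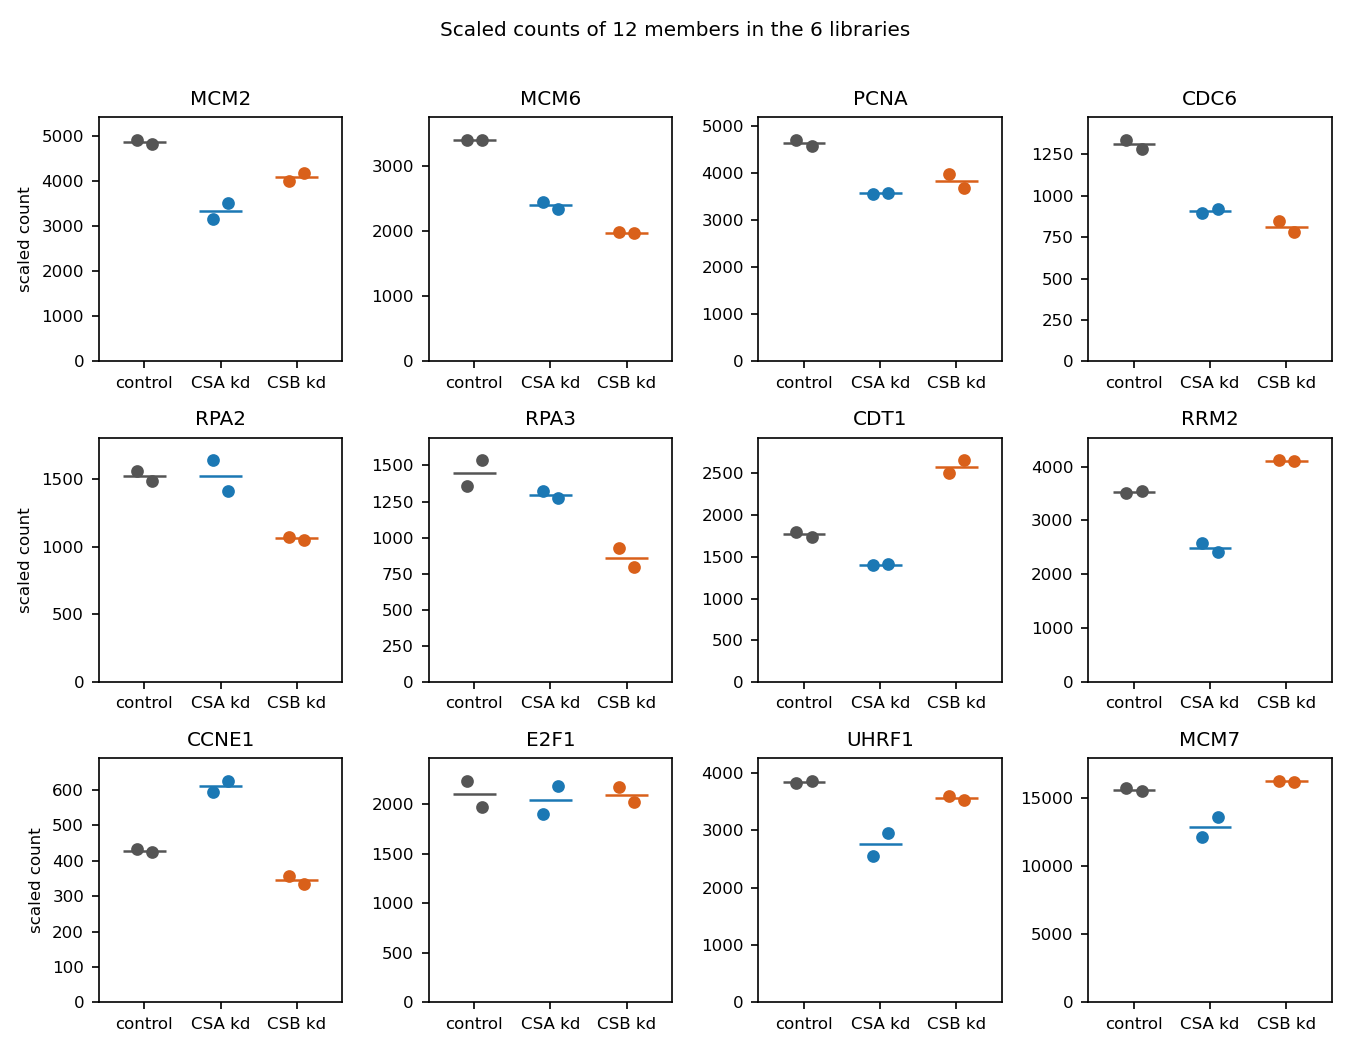
Scaled counts of 12 members in the 6 libraries (points) with the group means (lines), on axes that start at 0. CDT1 and RRM2 are lowest in the CSA knockdown and highest in the CSB knockdown, CCNE1 shows the opposite order, and MCM6, RPA2 and RPA3 are lowest in the CSB knockdown.

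Compared directly, 12 of the 51 members were higher and 8 lower in the CSB than in the CSA knockdown. These are 23.5% and 15.7% of the members, near the 18.1% called higher and 11.3% called lower of all genes and below the 32.9% and 22.7% among the genes with a mean of at least 200, so the counts are not a result about the members. The members' median was 0.02, against 0.09 over all genes. The 6 largest positive differences were CDT1 (0.88 ± 0.05, adjusted p = 1.3e-07), RRM2 (0.72 ± 0.05, adjusted p = 4.1e-07), CCNE2 (0.55 ± 0.14, adjusted p = 0.0123), UHRF1 (0.37 ± 0.06, adjusted p = 0.0007), MCM7 (0.33 ± 0.06, adjusted p = 0.00068) and E2F2 (0.32 ± 0.06, adjusted p = 0.00173). CCNE1 (-0.82 ± 0.07, adjusted p = 3.5e-06), RPA3 (-0.60 ± 0.08, adjusted p = 0.0001), RPA2 (-0.52 ± 0.07, adjusted p = 0.00012), RFC1 (-0.28 ± 0.05, adjusted p = 0.00158), MCM6 (-0.28 ± 0.05, adjusted p = 0.00095) and DUT (-0.19 ± 0.06, adjusted p = 0.0298) were the 6 largest negative ones. MCM2, MCM4, RFC3, POLD1, LIG1 and TK1 were the other 6 higher genes (0.21 to 0.29), and GINS2 and FEN1 the other lower ones (-0.18 and -0.17). Within the helicase, MCM2, MCM4 and MCM7 were higher and MCM6 lower in the CSB knockdown. CCNE2 did not pass with limma and TMM scaling (adjusted p = 0.0502) or in DESeq2 (adjusted p = 0.0974), nor without any 1 of the CSA or CSB libraries (adjusted p up to 0.243). DUT did not pass with only the groups compared in the fit (adjusted p = 0.0664) and passed in 1 of the 6 fits with a library left out. LIG1 did not pass with TMM scaling in edgeR (adjusted p = 0.097) or limma (0.0857), in DESeq2 (0.159) or with the trend on gene length removed (0.125). The members' counts differed between settings, with 9 higher and 17 lower with edgeR and TMM, 12 and 12 with edgeR and upper quartile scaling, 6 and 15 with limma and TMM, 7 and 11 in DESeq2, and, as a correction other than scaling, 7 and 19 with the length trend removed. The medians in those settings lay from -0.03 to -0.10. Over all genes, edgeR with TMM called 4368 higher and 4563 lower, where 5128 and 3212 were called here. Without the first CSB library 4 members were higher and 4 lower, without the second 2 and 4, and without the first control library 7 and 6. CDT1, RRM2, CCNE1 and MCM6 passed with any 1 library left out, at adjusted p of at most 0.0141, 0.0173, 0.0169 and 0.0431.

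Other genes around replication were read from lists outside the 51, to be set beside the 21.5% lower and 17.5% higher after CSA depletion and the 19.6% lower and 29.4% higher after CSB depletion among all genes with a mean of at least 200. Of 35 further replication factors, 19 fell and 1 rose after CSA depletion (median -0.18), and 17 fell and 1 rose after CSB depletion (median -0.20). The largest changes were in POLE3, a histone-fold subunit of polymerase epsilon (-0.71), and the histone chaperones ASF1B (-0.56) and ASF1A (-0.46) after CSA depletion, and in DSCC1 of the alternative clamp loader (-0.66), the MCM-binding protein MCMBP (-0.59) and the DDK subunit DBF4 (-0.54) after CSB depletion. Between the knockdowns, TICRR, which helps load CDC45, was higher in the CSB knockdown (0.56), as was the helicase RECQL4 (0.38), and MCMBP was lower (-0.34). GMNN, geminin, the inhibitor of CDT1, fell in both (-0.36 and -0.46). Of 19 other nucleotide supply genes, 5 fell and 14 were not called after CSA depletion, and 7 fell and 2 rose after CSB depletion. SAMHD1, which hydrolyses deoxyribonucleotides, stood at 449 and 430 in control, 422 and 387 after CSA depletion and 185 and 207 after CSB depletion. SAMHD1 thus lay lowest in the CSB knockdown (-1.16 ± 0.09, adjusted p = 2.5e-06). Of 11 replication checkpoint genes, 4 fell and 2 rose after CSA depletion and 4 fell and 1 rose after CSB depletion, and the largest change after CSA depletion was in USP1 (-0.46).

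Lists of regulators and of the later cell cycle were counted in the same way, beside the same shares (21.5% lower and 17.5% higher, and 19.6% and 29.4%). Of 17 E2F, RB and DREAM genes, 7 fell and 1 rose after CSA depletion, and 3 fell and 2 rose after CSB depletion. E2F7, an atypical repressor of the family, had 467 and 417 in control, 237 and 258 after CSA depletion and 445 and 460 after CSB depletion. E2F7 (-0.83 ± 0.09, adjusted p = 2.8e-05) and its relative E2F8 (-0.77 ± 0.09, adjusted p = 7.8e-05) were low in the CSA knockdown alone, with differences between the knockdowns of 0.87 and 0.76 (adjusted p = 8.4e-06 and 3.8e-05). TFDP1, the dimer partner of E2F proteins, fell in both (-0.64 and -0.46). Of 19 listed G1/S cyclins, kinases and inhibitors, 11 fell and 8 were not called after CSA depletion (median -0.52), while 5 fell and 7 rose after CSB depletion (median 0.02). CDK2, the kinase bound by cyclin E, fell in both (-0.83 ± 0.07, adjusted p = 5.2e-06, and -0.80 ± 0.07, adjusted p = 6.3e-06). The kinase inhibitors CDKN1A and CDKN2C and the cyclin gene CCND1 went in opposite directions. CDKN1A had 3903 and 3930 in control, 2548 and 2706 after CSA depletion and 6317 and 6186 after CSB depletion. CDKN2C fell by -0.67 and rose by 0.80, and CCND1 fell by -0.64 and rose by 0.18. MYCN, a transcription factor gene amplified in some neuroblastomas, had 116 and 119, 151 and 118, and 264 and 248, so that its CSB libraries lay above all others (1.12 ± 0.13, adjusted p = 6.1e-05). Of 20 G2/M and mitosis genes, 19 fell after CSA depletion (median -0.59), and 2 fell and 4 rose after CSB depletion (median 0.08). Whether that list differed from the members was not tested. In the members the medians were -0.28 and -0.27 with the deposited scaling.

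**Figure D4:**
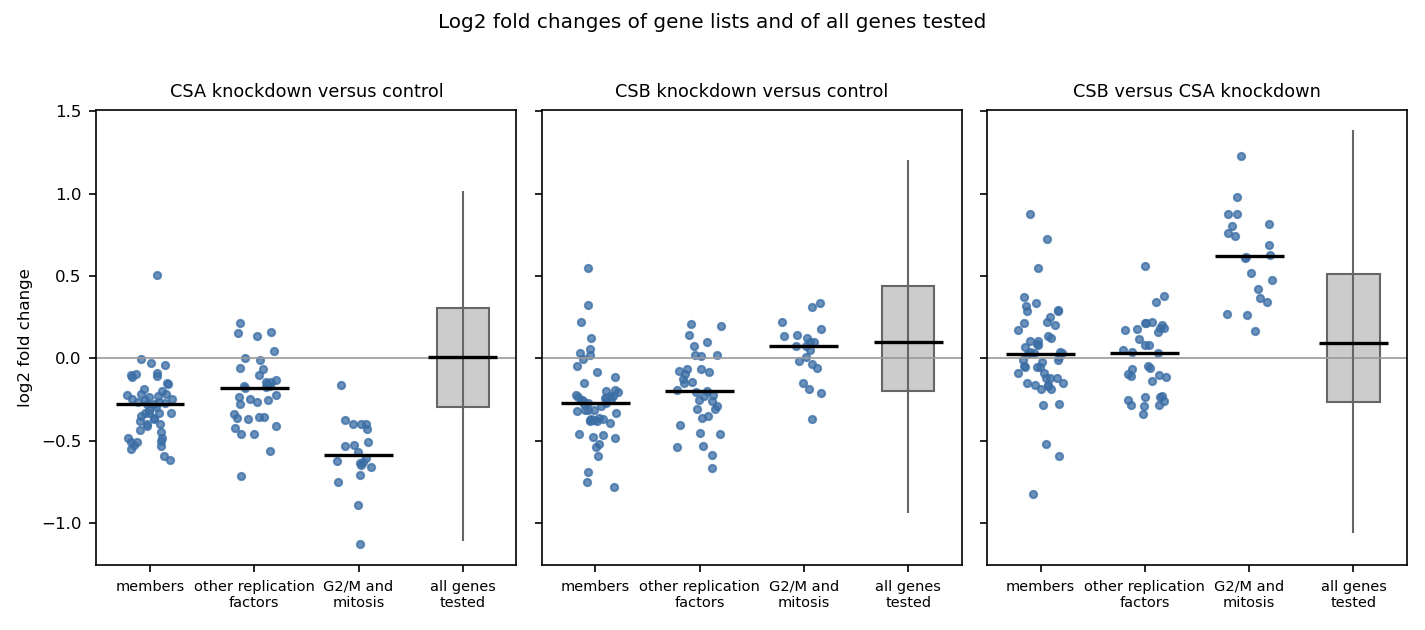
Log2 fold changes of the 51 members, 35 other replication factors and 20 G2/M and mitosis genes (points, 1 per gene, with the median as a line), beside all 28388 genes tested (box from the 25th to the 75th percentile, whisker from the 5th to the 95th). The members' medians are -0.28, -0.27 and 0.02 and those of the G2/M and mitosis genes -0.59, 0.08 and 0.62.

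The members were also counted by whether their windows held an E2F-type word, as a description. Of the 34 members with a match, 26 fell and 8 were not called after CSA depletion (median -0.32), and 23 fell, 2 rose and 9 were not called after CSB depletion (median -0.27). Of the 9 members with a window and no match (ORC6, CDC45, MCM10, PRIM2, POLD1, POLD2, FEN1, CCNE1 and SLBP), 7 fell, 1 rose and 1 was not called after CSA depletion (median -0.27), and 7 fell and 2 were not called after CSB depletion (median -0.25). The genes that rose were on both sides, since CDT1 and RRM2 hold such words and CCNE1 does not.

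Levels per kilobase of gene model, which allow genes to be set beside each other, ranged over the members from 33.9 (CCNE2) to 3565 (MCM7) in control, and PCNA (3148) and MCM3 (1784) came next below MCM7. As sets, helicase activators summed to 5504 to 5505 in control, 4421 to 4456 after CSA depletion and 4372 to 4378 after CSB depletion, as scaled counts. RPA summed to 5429 to 5558, 4806 to 5175 and 3910 to 4103, and nucleotide supply genes to 11999 to 12011, 9011 to 9209 and 10649 to 10714. All 51 members together summed to 109961 to 110665, 87980 to 90549 and 96437 to 96752. The total over all members was thus lowest after CSA depletion, and the RPA sum was lowest after CSB depletion. A total of 25 members overlapped another listed gene on the genome, and for 13 the other gene's level was at least 10% of the member's: CCNE2, CHAF1A, CHAF1B, FEN1, GINS2, MCM2, POLD3, PRIM1, RFC4, RFC5, RPA1, RPA3 and TYMS. Without a stated strand setting, reads of those 13 and of their neighbours cannot be told apart where the models overlap. PRIM1 (NACA), FEN1 (FADS2), CHAF1B (MORC3) and POLD3 (AP001372.2) overlap such a gene on their own strand. A strand setting would not separate those reads. The highest neighbour of each of the 13 stood at 12.8% (POLD3) to 2585% (PRIM1) of the member's level, with GSE1 at 1266% of GINS2. Pseudogenes of DUT, FEN1 and RRM2 were listed at no more than 0.351% of the member's level.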

How the data were processed

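Total RNA was sequenced from 3 groups of 2 libraries. Per the submitters' processing notes, reads were checked with FastQC and aligned to hg38 with HISAT2 2.0.4. The sources used here name no counting tool, strand setting or annotation. Values stand under the heading FPKM, per the file headers, yet do not depend on gene length. In every library 100% of them were multiples of the smallest value (within 0.01 of that step), so the deposited unit is a signal, gene read counts divided by the authors by 1 size factor per library. A gene absent from a table was taken as 0. limma 3.58.1 (R 4.3.3, mean-variance trend) was fitted to log2(scaled count + 1) over all 6 libraries, for 28388 genes with a mean of at least 1 in at least 1 group. p-values were adjusted over all of them by the Benjamini-Hochberg method. The fit takes 1 spread per gene for all 3 groups, but the groups' 2 libraries did not differ equally. Their chi-square on reads per degree of freedom was 1.95 in control, 5.06 in the CSA knockdown and 2.66 in the CSB knockdown. The planned tests were for a normalized unit or raw counts; the values were neither, and the former was used. Adding 1 understates the fold change of low genes. Count models on recovered reads (edgeR 4.0.16, DESeq2 1.42.0), other pseudocounts and filters, left-out libraries and a gene length correction were alternatives. Genes with values in every library were, per comparison, the 6 largest rises and falls among called members, the first member of each role, and the 3 largest changes per other list, of which some are not reported here. The members and lists were chosen with earlier results of these data known. Promoter windows came from RefSeq's table; stretches inside GENCODE v29 exons were not printed beyond 30 bases.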

Additional observations from a re-analysis of the deposited data

How the results depend on the processing

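Among 11 other settings, the count of members called lower stayed at 32 to 39 for CSA and 37 to 41 for CSB versus control. The members called higher in the CSB comparison numbered 1 instead of 2 with limma and TMM, in DESeq2 and with the gene length trend removed. Between the knockdowns, the members called lower numbered 17 (edgeR TMM), 15 (limma TMM), 19 (gene length) and 5 (only the groups compared) against 8, and those called higher 6 (limma TMM), 7 (DESeq2) and 7 (gene length) against 12. The median over all genes moved by up to -0.104 (CSB versus control) and -0.110 (CSB versus CSA), both with the length trend removed. With 1 library left out, where a lone library is assumed to vary like the other groups, members called lower ranged over 5 to 25 (CSA), 10 to 34 (CSB) and 4 to 6 (CSB versus CSA), and those called higher over 0 to 1, 1 to 2 and 2 to 10. A fit with the replicate number as a replicate block called 38 lower and 1 higher, 37 and 2, and 8 and 12. The deviations of same-numbered libraries correlated at -0.04, -0.03 and -0.03, so no effect shared by same-numbered libraries was seen. Whether such libraries were cultured or prepared together is not known from the sources used here.

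Signs turned only for uncalled values near 0, and the cause was not tested. With 1 library left out, E2F1 ranged from -0.1402 to 0.0535 in the CSA and from -0.0940 to 0.0885 in the CSB comparison, and ERCC6 from -0.0003 to 0.0509 in the CSA comparison. Between the knockdowns, RRM1, E2F1 and CLSPN were -0.0475, -0.0531 and -0.0517 with edgeR TMM, -0.0203, -0.0249 and -0.0239 with upper quartile, -0.0546, -0.0469 and -0.0637 with limma TMM, -0.0498, -0.0510 and -0.0558 in DESeq2, and -0.0917, -0.0889 and -0.0996 without the length trend, where PCNA was -0.0050. With 1 library left out, the ranges were -0.1392 to 0.0359 for CDC45, -0.0263 to 0.0089 for POLA1, -0.0624 to 0.1283 for RRM1, -0.0562 to 0.1375 for E2F1 and -0.1139 to 0.1615 for CLSPN. Of the named genes' other values, 190 lost and 1 gained a call with a library left out, and 25 lost and 17 gained one under other settings. Each member had at least 110 reads in every library, and CCNE2, the member with the fewest, had the largest standard error.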

Other observations

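Ratios of scaled counts within a library need no scaling between libraries. The pairs below were chosen after the values were seen and are given without a test. CDT1 stood at 1.64 and 1.62 times the level of its inhibitor gene GMNN in control, at 1.68 and 1.64 times after CSA depletion, and at 2.98 and 3.59 times after CSB depletion. The CSB libraries lay well above the other 4, which were close together. MCM6, relative to MCM7 of the same helicase ring, stood at 0.216 and 0.219 in control, 0.201 and 0.171 after CSA depletion and 0.121 and 0.121 after CSB depletion. CCNE1 relative to CCNE2 stood at 3.34 and 2.51, 4.97 and 4.69, and 1.80 and 1.92. The 3 groups of that ratio did not overlap. RPA3 relative to RPA1 was 0.541 and 0.606 in control, 0.599 and 0.60 after CSA depletion and 0.441 and 0.385 after CSB depletion. RPA2 relative to RPA1 was 0.623 and 0.587, 0.744 and 0.665, and 0.512 and 0.509. The subunits of 1 trimer were thus at lower ratios in the CSB knockdown than in the other 4 libraries.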
